A study of Mus musculus with 3 samples.

Results

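The BCL2 family and survival genes described here are 10 mouse genes taken by symbol from the annotation of the deposited tables, out of 55536 annotated genes. They are the anti-apoptotic Mcl1, Bcl2l1, Bcl2 and the copies Bcl2a1a, Bcl2a1b and Bcl2a1d, the executioners Bax and Bak1, the BH3-only gene Bcl2l11, and Birc3, an inhibitor of apoptosis. The series holds 3 RNA libraries of a single group: bone marrow-derived macrophages of C57BL/6J mice, given 100 ng/ml lipid A for 25 min, from which the cytosolic RNA was taken and depleted of ribosomal RNA. Lipid A is the part of bacterial lipopolysaccharide that the receptor TLR4 senses. No unstimulated library is used here, so no level can be called a response to lipid A. The labels number the libraries as biological replicates 1 to 3 and tie all of them to a single donor record, without saying whether the cultures were separate, so the spread between them may be partly technical. With 1 group there is no test between groups, and an exact sign-flip test over 3 libraries cannot go below p = 0.25, so values are given with their SD and no p.

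Proteins of the BCL2 family decide whether the outer mitochondrial membrane is opened during apoptosis. BAX and BAK open it and let cytochrome c out, guardians such as MCL1, BCL-XL (from Bcl2l1), BCL2 and BCL2A1 hold them back, and BH3-only proteins such as BIM (from Bcl2l11) bind the guardians or act on the executioners directly. Inhibitor of apoptosis proteins act elsewhere: cIAP2, from Birc3, is a ubiquitin ligase of TNF receptor signalling. In macrophages Bcl2a1 and Birc3 are known as targets of NF-κB. MCL1 is a short-lived protein.

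All 8 macrophage markers checked, among them Csf1r and Adgre1, reached 1 TPM (a level scaled by transcript length and by the library's total) in every library, and none of 27 markers of T and NK cells, B cells, neutrophils, mast cells and basophils, stromal cells or erythroid cells did. The highest of those was the neutrophil gene Ltf, at most 1.42 TPM. The lowest of the T and NK cell, B cell and neutrophil markers, Cd3e, Ms4a1 and Ly6g, were listed at 0 TPM in at least 1 library. The 6 neutrophil markers summed to 0.95, 2.92 and 1.63 TPM in replicates 1, 2 and 3. The libraries held 38623777 to 53055764 expected counts, and the small cytoplasmic RNA 7SL took 57.4% to 59.5% of all TPM. Protein-coding genes took 22.7%, 22.9% and 29.8% of TPM in replicates 1, 2 and 3, so messenger RNA as a whole took a larger part of TPM in replicate 3, and comparisons between libraries were made on normalised counts. Replicate 2 held 1144 TPM of the nuclear RNA Malat1, against 392 and 374 TPM in replicates 1 and 3.

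The 3 Bcl2a1 copies lie on chromosome 9 and have coding sequences of 516 bases that differ at only 12 positions, which limits how reads can be divided among them. The first stretch shown is bases 1 to 102 of the coding sequence, counted from the A of the start codon, from the GENCODE M21 transcripts; capitals mark each position at which the copies are not all alike. Its mm10 positions are chr9:88957051-88957152 (plus strand) for Bcl2a1a, chr9:89199360-89199461 (plus strand) for Bcl2a1b and chr9:88731618-88731719 (minus strand) for Bcl2a1d.
Bcl2a1a: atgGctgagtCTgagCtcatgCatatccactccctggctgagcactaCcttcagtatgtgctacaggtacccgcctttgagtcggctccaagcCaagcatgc
Bcl2a1b: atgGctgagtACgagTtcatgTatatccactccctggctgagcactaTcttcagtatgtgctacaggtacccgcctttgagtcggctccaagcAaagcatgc
Bcl2a1d: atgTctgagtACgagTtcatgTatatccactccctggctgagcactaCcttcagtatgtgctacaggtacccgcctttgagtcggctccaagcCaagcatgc
The second stretch, bases 304 to 415, lies in the same exon at chr9:88957354-88957465, chr9:89199663-89199774 and chr9:88731305-88731416 in the same order.
Bcl2a1a: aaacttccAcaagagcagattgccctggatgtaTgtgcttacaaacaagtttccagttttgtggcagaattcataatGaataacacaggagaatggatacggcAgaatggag
Bcl2a1b: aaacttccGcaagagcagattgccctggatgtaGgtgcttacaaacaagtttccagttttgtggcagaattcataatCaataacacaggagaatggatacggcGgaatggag
Bcl2a1d: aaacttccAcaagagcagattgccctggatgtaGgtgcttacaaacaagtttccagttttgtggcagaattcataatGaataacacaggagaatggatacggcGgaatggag
Of the 12 positions, 7 lie in the first stretch, 4 in the second and the last at base 490. Bcl2a1a and Bcl2a1b differed at 11 coding positions (97.9% identical), Bcl2a1a and Bcl2a1d at 7 (98.6%), and Bcl2a1b and Bcl2a1d at 6 (98.8%). Bcl2a1a carried 6 bases that neither other copy has, Bcl2a1b 5 and Bcl2a1d 1. Over whole transcripts, 20.4%, 11.2% and 10.9% of the distinct 31-base words of Bcl2a1a, Bcl2a1b and Bcl2a1d occurred in no other annotated gene on either strand. For the other 7 genes that share was 79.6% to 99.98%, lowest for Bak1, whose transcripts overlap the opposite-strand gene Ggnbp1.

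In these macrophages Mcl1 was the most abundant of the 10 transcripts, Bax and Bcl2a1b followed, and Bcl2 and Bcl2a1a were the least abundant. Of the 10 genes, 8 reached 1 TPM in every library, where 41.3% of 22015 nuclear protein-coding genes did. Bcl2 did so in replicate 2 alone, and Bcl2a1a in none. With TPM rescaled to nuclear protein-coding and long noncoding genes, Bcl2 averaged 3.65 TPM and Bcl2a1a 1.51 TPM. The median over the 10 genes was 20.8, 21.7 and 26.2 TPM in the 3 libraries, a mean of 22.9 ± 2.89 TPM (SD, n = 3), beside 7.78 ± 1.27 TPM for the protein-coding genes that reached 1 TPM in every library. These genes were picked by name as well-known regulators, so a higher median than that of all genes says nothing about the family as such.

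**Figure D1:**
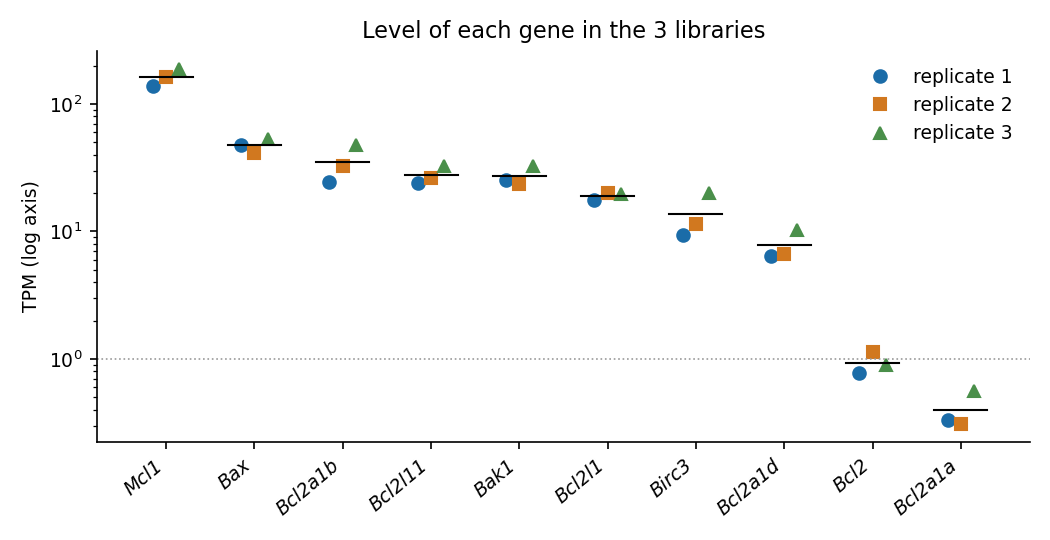
Each point is the level of 1 gene in 1 library, in TPM on a log axis, with genes in falling order of their mean (black bar) and a dotted line at 1 TPM. Mcl1 sits above every other gene in all 3 libraries, 7 genes lie between 6.41 and 53.4 TPM, and Bcl2 and Bcl2a1a lie at 0.31 to 1.13 TPM.

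Among the guardians, Mcl1 (chr3:95658788-95663176, plus strand) had 139, 163 and 189.9 TPM in replicates 1, 2 and 3, a mean of 164 ± 25.6 TPM (SD, n = 3), and ranked 208th among 22015 nuclear protein-coding genes. Its counts of 45022, 38090 and 35675 make it the most deeply sampled of the 10 genes. Bcl2l1 (chr2:152780668-152831728, minus strand), which encodes BCL-XL, had 17.7, 20.0 and 19.8 TPM, a mean of 19.2 ± 1.25 TPM. Within a library Mcl1 was 8.47-fold above Bcl2l1, a log2 ratio of 3.08 ± 0.16 with Mcl1 higher in 3 of 3 libraries. Bcl2 (chr1:106538178-106714274, minus strand), the founding member of the family, had 0.78, 1.13 and 0.89 TPM from 547, 594 and 357 counts. Mcl1 was 159-fold above it, a log2 ratio of 7.31 ± 0.27 on the log2(TPM + 0.1) scale. In these RSEM tables Mcl1 was highest in replicate 3. In kallisto TPM, Mcl1 had 84.6, 56.7 and 51.2 TPM and was highest in replicate 1. Why the order of libraries differs between the methods was not tested.

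Bcl2a1b (chr9:89199209-89207827, plus strand) took most of the signal of the Bcl2a1 copies, with 24.5, 32.4 and 47.6 TPM and a mean of 34.9 ± 11.8 TPM. Bcl2a1d (chr9:88723285-88731914, minus strand) had 6.41, 6.61 and 10.4 TPM. Bcl2a1a (chr9:88956900-88962419, plus strand) had 0.33, 0.31 and 0.56 TPM, from 21, 15 and 20 counts, whose exact 95% Poisson intervals were 13.0 to 32.1, 8.40 to 24.7 and 12.2 to 30.9 counts. In RSEM TPM each copy was highest in replicate 3, and in kallisto TPM each was highest in replicate 1, with 11.0, 8.38 and 10.1 TPM for Bcl2a1b. Of the counts that RSEM placed on the 3 copies, Bcl2a1b held 77.2%, 81.4% and 80.3%, Bcl2a1d 21.8%, 17.8% and 18.8%, and Bcl2a1a 1.07%, 0.78% and 0.93% in replicates 1, 2 and 3. Exact binomial 95% intervals for the Bcl2a1b share were 75.2% to 79.0%, 79.6% to 83.1% and 78.6% to 82.0%, so those of replicates 1 and 2 did not overlap and that of replicate 3 overlapped both. They cover counting error only, not the error of dividing reads among copies. The alignment-free kallisto tables gave 78.5 ± 1.86%, 20.4 ± 1.70% and 1.10 ± 0.16% (SD, n = 3), so both methods put Bcl2a1b first and Bcl2a1a last. A further copy, Bcl2a1c, which is no member of the set and was looked up after the others had been seen, held 3, 5 and 1 counts. Gm29094, an annotated gene that overlaps Bcl2a1b on the same strand and shares sequence with all 3 copies, held 13, 43 and 9 counts in RSEM and 55, 133 and 46 in kallisto.

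Because the division among copies is uncertain, the copies are best read as a sum. Summed, they reached 31.2, 39.4 and 58.5 TPM, and they stood 3.90-fold below Mcl1, a log2 ratio of -1.97 ± 0.24, lower in 3 of 3 libraries. Among the TPM of the 6 guardians, Mcl1 held 72.4 ± 1.60%, the summed Bcl2a1 copies 18.6 ± 2.75%, Bcl2l1 8.56 ± 1.08% and Bcl2 0.42 ± 0.09% (SD, n = 3). The Bcl2a1 share was 16.6%, 17.6% and 21.8% in replicates 1, 2 and 3, highest in replicate 3, where the Bcl2l1 share was lowest at 7.34%.

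Of the executioners, Bax (chr7:45461697-45466898, minus strand) had 47.5, 41.6 and 53.4 TPM, a mean of 47.5 ± 5.90 TPM. Bak1 (chr17:27019810-27029009, minus strand) had 25.4, 23.4 and 32.4 TPM, a mean of 27.1 ± 4.74 TPM. Bax was 1.76-fold above Bak1, a log2 ratio of 0.81 ± 0.09, and higher in 3 of 3 libraries. This order is one of levels per length: Bak1, with the longer transcript, held more expected counts than Bax in every library (4424, 3231 and 3234 for Bak1 against 3272, 2253 and 2131 for Bax). The summed guardians were 3.03-fold above the summed executioners, a log2 ratio of 1.60 ± 0.21, with values of 1.37, 1.78 and 1.65 in the 3 libraries. These are amounts of RNA in the cytosol of a cell population. They do not give protein amounts, and fewer cells with a transcript cannot be told apart from less of it per cell.

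Bcl2l11 (chr2:128126038-128162547, plus strand), which encodes the cell death activator BIM, had 24.0, 26.4 and 32.7 TPM, a mean of 27.7 ± 4.53 TPM. It stood 8.16-fold below the summed guardians, a log2 ratio of -3.03 ± 0.06, the smallest SD among the 6 ratios computed. Birc3 (chr9:7848699-7873186, minus strand) had 9.36, 11.4 and 20.0 TPM, a mean of 13.6 ± 5.63 TPM. Replicate 3 was the highest for Birc3 in RSEM TPM but the lowest in kallisto TPM, at 7.03, 6.26 and 6.08 TPM in replicates 1, 2 and 3. Because the order of libraries in TPM depends on the table, it is described from normalised counts further on.

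In falling order the means run Mcl1, Bax, Bcl2a1b, Bcl2l11, Bak1, Bcl2l1, Birc3, Bcl2a1d, Bcl2 and Bcl2a1a. Neighbours were taken to differ beyond their spread where the difference in log2(TPM + 0.1) had 1 sign in all 3 libraries and a mean above 2 SD. By that reading Mcl1 exceeded Bax (3.44-fold), Birc3 exceeded Bcl2a1d (1.69-fold), Bcl2a1d exceeded Bcl2 (7.53-fold) and Bcl2 exceeded Bcl2a1a (2.10-fold). The steps from Bax through Bcl2a1b, Bcl2l11, Bak1 and Bcl2l1 to Birc3 were all within it, at 1.02-fold to 1.48-fold. Bcl2l11 and Bak1 changed places between libraries, and so did Bcl2l1 and Birc3.

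The transcript tables show which form of each gene the reads were assigned to. For Bcl2l11, 75.2 ± 1.26% of TPM (SD, n = 3) fell on Bcl2l11-205, whose 196 codons are those of the long form BimEL. Bcl2l11-203, with the 140 codons of BimL, held 4.59 ± 1.10%, and the transcripts with the 110 codons of BimS held 8.54 ± 1.08%. By kallisto BimEL held 66.0 ± 1.60%, BimL 7.22 ± 1.07% and BimS 13.7 ± 2.07%, so BimEL led in both tables and BimS exceeded BimL per length in both. By share of RSEM counts the order of the shorter forms was the other way, at 3.83 ± 0.89% for BimL and 1.05 ± 0.13% for BimS. The long form is set apart from BimL by 168 coding bases at chr2:128128757-128128924 (mm10, plus strand), in capitals here with 15 bases on each side. This stretch is known to hold the ERK phosphorylation sites through which BimEL is marked for degradation.
Bcl2l11-205: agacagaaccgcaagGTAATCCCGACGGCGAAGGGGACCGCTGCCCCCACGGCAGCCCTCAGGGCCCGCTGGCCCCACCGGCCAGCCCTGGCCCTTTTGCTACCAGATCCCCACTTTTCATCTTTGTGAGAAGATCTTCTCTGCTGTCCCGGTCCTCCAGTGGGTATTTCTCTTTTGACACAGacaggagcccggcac

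For Bak1 most of the signal fell on transcripts that the annotation marks for nonsense-mediated decay, a pathway that degrades messages with an early stop codon. Bak1-201 had 11.3, 11.2 and 13.2 TPM, or 44.3 ± 3.61% of the gene, and Bak1-204 had 9.51, 8.49 and 13.0 TPM, or 37.9 ± 1.93% (SD, n = 3). The full-length coding transcript Bak1-202, with 209 codons, had 2.22, 2.14 and 3.04 TPM, or 9.08 ± 0.33%. In kallisto Bak1-202 held 17.8 ± 6.58%, so its share depends on the method. Together the transcripts marked for decay held 81.6%, 84.3% and 80.8% in RSEM, and 68.4 ± 4.97% in kallisto, so the coding part was the smaller in both. Within the coding sequence these forms differ by short stretches. Bak1-201 carries an extra exon of 20 bases at chr17:27021663-27021682 (mm10, minus strand), in capitals in the first line, and the second line is the same junction in Bak1-202.
Bak1-201: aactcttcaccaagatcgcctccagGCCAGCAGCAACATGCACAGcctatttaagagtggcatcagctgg
Bak1-202: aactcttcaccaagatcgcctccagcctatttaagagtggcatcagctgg
Bak1-204 lacks 5 bases at chr17:27022873-27022877, in capitals in Bak1-202 in the first line below, at the start of an exon.
Bak1-202: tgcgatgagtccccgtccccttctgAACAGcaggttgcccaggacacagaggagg
Bak1-204: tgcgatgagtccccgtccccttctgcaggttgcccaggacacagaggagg
Neither 20 nor 5 is a multiple of 3, so each change shifts the reading frame, and the annotated coding sequences shrink to 151 codons in Bak1-201 and 79 in Bak1-204. An extra exon of 20 bases is also what defines the neuronal form N-Bak described in mouse; whether it is the same exon was not tested. Bak1-202 also starts farther upstream, at chr17:27029009 against 27028578 for Bak1-201 and 27028587 for Bak1-204. It is 2387 bases long, against 1974 and 1958. Reads across these junctions and reads on the longer upstream end of Bak1-202 both tell these forms apart, and the files hold no reads. How much each weighed in the shares was not tested. Counted over annotated coding transcripts alone, a comparison chosen after the data were seen, Bak1 had 4.67, 3.68 and 6.23 TPM and Bax had 47.3, 41.3 and 53.1 TPM. Bax then stood 9.71-fold above Bak1 in RSEM, against 1.76-fold over all transcripts. In kallisto the coding transcripts averaged 15.05 TPM for Bax and 2.87 TPM for Bak1, a smaller fold than in RSEM.

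For Mcl1, the forms were divided differently by the 2 methods. Mcl1-201, with 331 codons, held 97.7%, 88.4% and 99.6% of TPM in RSEM and 65.9%, 62.4% and 74.7% in kallisto, and Mcl1-202 took the rest. In RSEM, Mcl1-202 had 3.22, 19.0 and 0.77 TPM, with the authors' 95% credibility bounds at 0.14 to 6.41, 14.3 to 22.4 and 0.03 to 3.15 TPM, so replicate 2 lay apart from the others. Mcl1-202 has 285 codons and lacks 138 coding bases of the first exon, chr3:95658909-95659046 (mm10, plus strand), shown in capitals with 25 bases on each side. It is also much shorter outside the coding sequence, at 858 bases in all with 855 coding, against 3418 with 993 coding for Mcl1-201. Which of these differences the division turns on was not tested. The stretch is rich in G and C.
Mcl1-201: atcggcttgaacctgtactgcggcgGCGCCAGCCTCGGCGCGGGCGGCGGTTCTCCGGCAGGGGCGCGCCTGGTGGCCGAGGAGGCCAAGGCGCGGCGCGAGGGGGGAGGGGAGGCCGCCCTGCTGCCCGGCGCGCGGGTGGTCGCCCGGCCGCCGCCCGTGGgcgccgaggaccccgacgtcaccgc

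Bax-201, with the 192 codons of full-length BAX, held 82.9 ± 0.99% of Bax TPM in RSEM and 81.5 ± 2.28% in kallisto, and Bax-203, an incomplete model, held 9.31% to 12.05% in RSEM. For Bcl2l1, Bcl2l1-201 and Bcl2l1-202 encode the same 233 codons of BCL-XL and together held 86.5 ± 2.65%. Bcl2-201, with 236 codons, held 93.9 ± 3.29% of Bcl2. Birc3-201, with the full 602 codons, had 6.83, 6.19 and 13.6 TPM and held 65.1 ± 9.82% of the gene in RSEM but 39.3 ± 11.2% in kallisto. The rest of Birc3 lay largely on Birc3-205 and Birc3-206, which are 355 and 360 bases long and have no coding sequence: 19.0 ± 4.07% of TPM in RSEM and 45.2 ± 8.45% in kallisto, yet 1.63 ± 0.48% of its RSEM counts. TPM divides reads by length, so these few reads weigh more in Birc3 TPM than in its counts. Transcripts holding under 10% of a gene are named here because of their values.

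**Figure D2:**
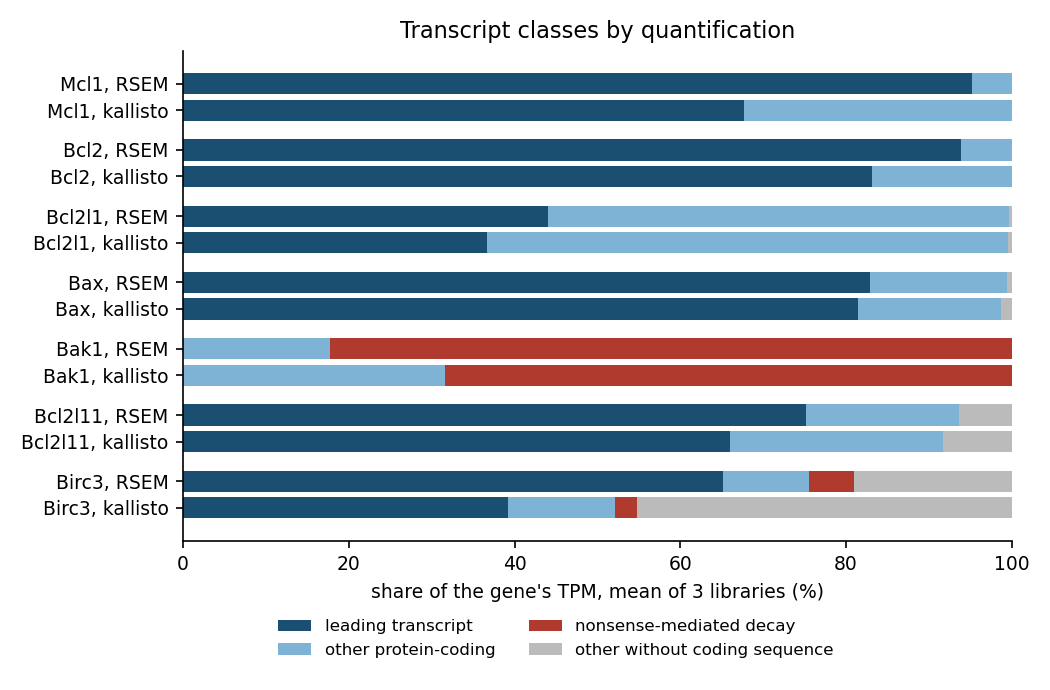
Each bar divides the TPM of 1 gene (mean of 3 libraries, in %) among its leading transcript, other protein-coding transcripts, transcripts annotated for nonsense-mediated decay and others without a coding sequence, with the RSEM bar above the kallisto bar. For Bak1 the leading transcript is itself annotated for decay and is drawn in that class; Bak1, Mcl1 and Birc3 show the widest gaps between methods.

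Several minor transcripts contain sequence from introns of the gene's leading transcript, and most of these were highest in replicate 2. Of 14 such transcripts with at least 25% of their bases in those introns, 10 were highest in replicate 2. Of the 16 other transcripts with any count that did not lead their gene, 2 were. Those 16 include abundant forms such as Bcl2l1-202, with 42.4% of Bcl2l1 TPM, and Bak1-204, with 37.9% of Bak1 TPM. The limit of 25% was chosen after the values were seen. For 3 of the 10, Bcl2l11-206, Bcl2l1-203 and Bax-203, replicate 2 was only 1.09, 1.06 and 1.11 times the mean of the others. Bcl2l1-205 had 0.43, 2.25 and 1.02 CPM (counts scaled by library size), Bcl2l11-202 had 4.16, 7.93 and 4.06, Bcl2-202 had 0.20, 0.53 and 0.13, and Birc3-202 had 1.30, 4.37 and 2.67 in replicates 1, 2 and 3. The ratio of replicate 2 to the mean of the others had a median of 1.27 over the 14 and 0.85 over the 16. The exceptions among the 16 were Mcl1-202 and Birc3-207, which hold no such bases and were 9.41 and 3.90 times the mean of the others in replicate 2. The 14 all come from Bcl2l11, Bcl2l1, Birc3, Bax and Bcl2, and those of Bcl2l1 overlap one another, so they are not independent. How often transcripts of all genes are highest in replicate 2 was not tested. Among all genes tested, 8.42% stood over 1.5-fold above replicate 1 in replicate 2 and 1.92% below. Against replicate 3, 10.1% stood that far above in replicate 2 and 4.49% below. The part of nuclear RNA in the differences between libraries was not tested.

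**Figure D3:**
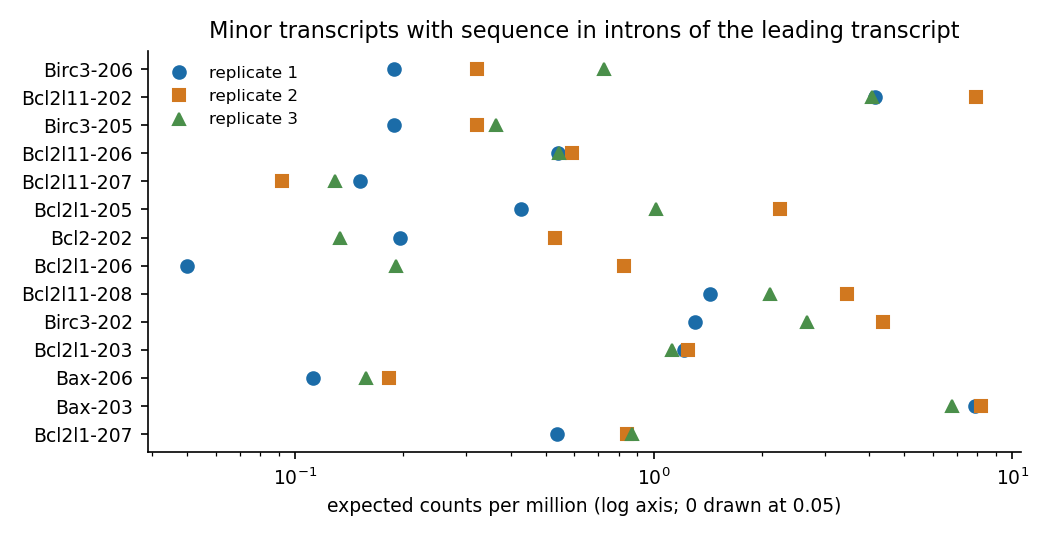
Points give the CPM (log axis) of 14 minor transcripts in the 3 libraries (0 is drawn at 0.05), ordered from the highest share of bases in introns of the leading transcript at the top to the lowest at the bottom. Orange squares (replicate 2) lie farthest right for 10 of the 14, by a narrow margin for Bcl2l11-206, Bcl2l1-203 and Bax-203.

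Between libraries, normalised counts of Mcl1 and Bcl2l11 hardly moved while Birc3, Bcl2 and Bcl2a1b moved most. After TMM normalisation, with a prior count of 2, Mcl1 had 865, 882 and 902 CPM and an SD of 0.03 in log2 CPM. Bcl2l11 had 190.5, 193 and 195 CPM and an SD of 0.02. The median SD was 0.20 over the 10 genes, 0.13 over the 12744 genes tested and 0.11 over those with a mean count of at least 100. Birc3 had 35.9, 34.9 and 54.6 CPM on this scale, a range of 1.565-fold with replicate 3 apart from the other libraries. It exceeded 1.5-fold upward between replicate 3 and replicate 1, as did 3.16% of the genes tested, and between replicate 3 and replicate 2, as did 4.49%. Bcl2 had 10.6, 13.8 and 9.07 CPM, and in replicate 3 it stood over 1.5-fold below replicate 2, with a range of 1.52-fold, as did 10.1% of genes. None of the 10 was lower by that much in replicate 3 than replicate 1, where 2.77% of genes were. None was over 1.5-fold apart between replicates 2 and 1, where 8.42% of genes were higher and 1.92% lower in replicate 2. Bcl2a1b, with 29.2, 36.4 and 43.8 CPM, had a range of 1.498-fold, just inside the limit. Scaled by library size alone, Bcl2 had a range of 1.47-fold and Bcl2a1b of 1.56-fold, so which of these passes 1.5-fold turns on the normalisation. With 1 or 0 members past it in each pair and direction, the counts are near what these shares of all genes give for 10 genes. Without replicate 3 the median SD of the 10 genes was 0.09.

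**Figure D4:**
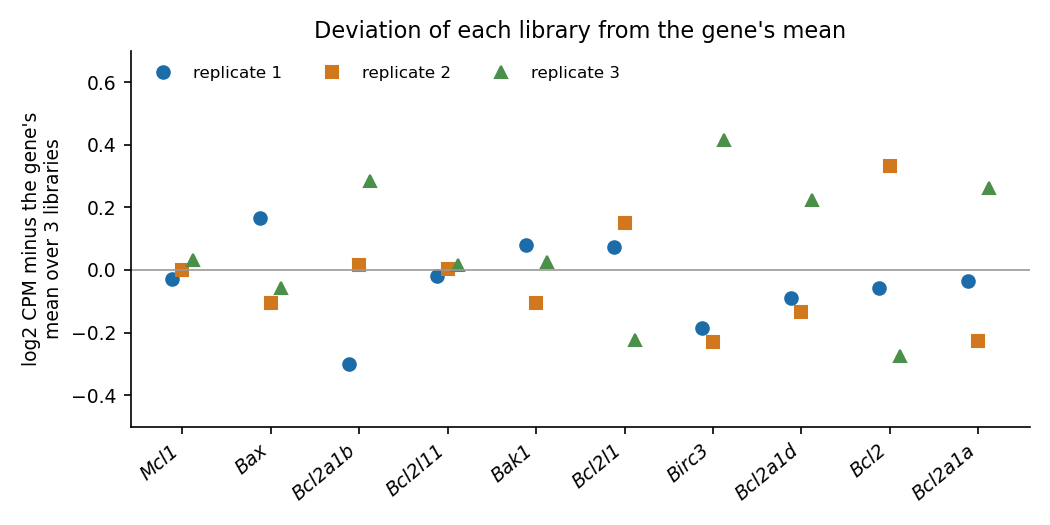
The vertical axis is the log2 CPM (TMM-normalised, prior count 2) of 1 library minus the gene's mean over the 3 libraries, with genes in falling order of mean TPM. Mcl1 and Bcl2l11 lie within 0.04 of their means; Birc3 and the 3 Bcl2a1 copies are highest in replicate 3, and Bcl2 and Bcl2l1 in replicate 2.

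Genes with the most similar pattern over the 3 libraries were found by the Euclidean distance of centred log2 CPM, among nuclear protein-coding genes with a mean count of at least 100. Nearest to the summed Bcl2a1 copies were Zc3h12a, which encodes the RNase Regnase-1, Jun, an AP-1 transcription factor, Rab20, Plxdc2 and Map4k1, and 40 of 9924 genes lay within a distance of 0.1. Nearest to Birc3 were Il12rb1, Zfp867, Tiparp, Gdf15 and Kmo, with 17 of 9925 genes within that distance. Nearest to Mcl1 were Ppm1f, Crnkl1, Vps54, Rad21 and Ppp2r5a, but 2643 of 9925 genes were as close as 0.1, since a gene that hardly moves resembles any other such gene. Over 3 libraries these are descriptions of likeness only.

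Around these genes, RNA of most genes of the wider cell death lists reached 1 TPM in the macrophage cytosol. Of 59 genes in 9 lists, all 10 described genes included, 48 reached 1 TPM in every library, and of the 49 others 40 did, where 41.3% of all nuclear protein-coding genes did. Of the 59, 37 reached 1 TPM in every library in kallisto, and 29 reached 5 TPM in RSEM. The median of the 49 others was 5.21 ± 0.83 TPM (SD, n = 3). Bcl2l2, the remaining guardian detected and named for that reason after its value was seen, had 4.70 ± 0.46 TPM, below Bcl2l1, and Bcl2l10 was listed at 0 TPM in all 3 libraries. The third executioner, Bok, stayed at or under 0.03 TPM. Among BH3-only genes, Bcl2l11 led, followed by Pmaip1, which encodes the MCL1 antagonist NOXA, at 15.1, 14.5 and 25.3 TPM, and Bad at 10.1, 9.10 and 14.3 TPM. Bik and Hrk stayed at or under 0.05 TPM. Of the more distant relatives, Bnip3l and Bnip2 reached 30.0 ± 2.95 and 29.8 ± 4.14 TPM, about the level of Bcl2l11, and Bnip3 had 5.41 ± 1.10 TPM, whereas Bcl2l14 and Bcl2l15 stayed at or under 0.05 TPM.

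Among inhibitors of apoptosis, Birc6 at 20.7 ± 4.48 TPM and Xiap, a direct caspase inhibitor, at 13.2 ± 2.55 TPM stood beside Birc3, while Naip1 and Birc7 were under 0.1 TPM. Their antagonists Htra2 and Diablo had 13.1 ± 1.05 and 5.46 ± 0.55 TPM, and Cycs, which encodes cytochrome c, had 5.39 ± 1.18 TPM. All 7 genes of the apoptosome and caspase list were detected, led by Casp8 at 21.8 ± 4.52, Apaf1 at 13.4 ± 3.39 and Casp9 at 9.82 ± 1.18 TPM. In the death receptor list, Tnfrsf1a, a receptor for TNF, had 37.2 ± 6.84 TPM, Cflar, which encodes the caspase-8 inhibitor c-FLIP, 25.0 ± 4.10 TPM and Ripk1 19.4 ± 3.70 TPM, while Tnfrsf10b stayed under 0.3 TPM. All 6 genes of necroptosis and pyroptosis were detected, led by Casp1 at 25.9 ± 5.78, the pore-forming Gsdmd at 15.3 ± 3.52 and Casp4, the sensor of cytosolic lipopolysaccharide, at 7.72 ± 1.92 TPM.

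**Figure D5:**
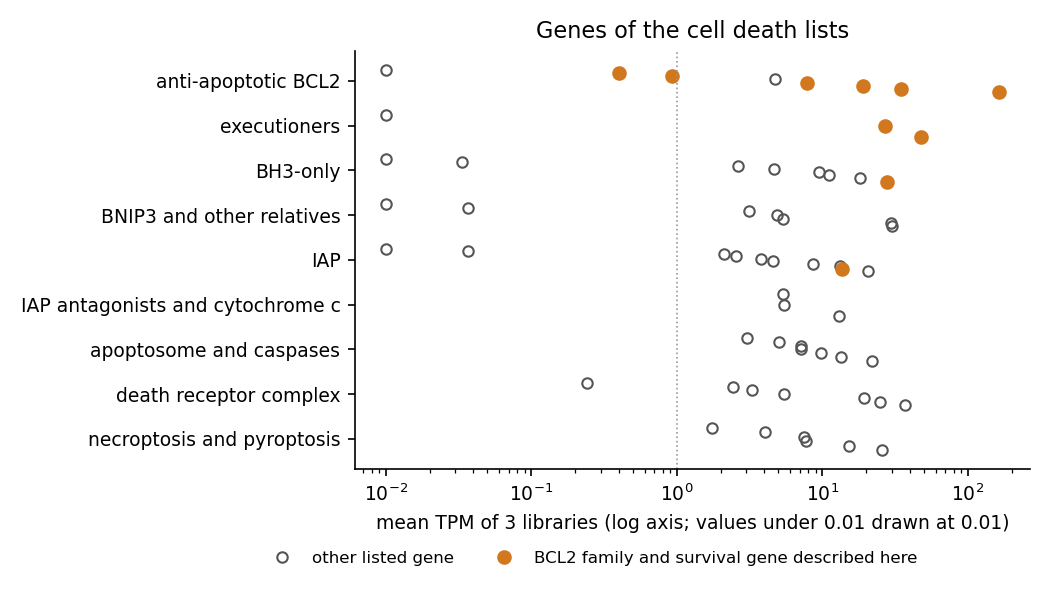
Each circle is the mean TPM of 1 gene over 3 libraries (log axis, values under 0.01 drawn at 0.01), grouped by list, with the 10 genes described here filled and a dotted line at 1 TPM. Mcl1 at 164 TPM is the highest of the 59 genes, and genes left of the line occur in the anti-apoptotic, executioner, BH3-only, relatives, inhibitor and death receptor lists.

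Both deposited quantifications gave similar counts for these genes. The ratio of the alignment-free kallisto count to the alignment-based RSEM count averaged 1.07 to 1.29 per gene over the 3 libraries, and its median over 10307 genes with a mean count of at least 100 was 1.09. The ratio was highest for Bcl2a1a, at 27, 21 and 24 kallisto counts against 21, 15 and 20 RSEM counts. No member was over 1.5-fold apart, where 1.48% of those genes were above and 0.65% below. At such shares, finding no member among 10 is near what all genes give. Bcl2a1a lies below the mean count of 100 that was set for those genes. Overlapping genes were assigned few RSEM counts: Gm45808, which overlaps Bax on the same strand, had at most 10 in a library and Ggnbp1, opposite Bak1, at most 47 in either of its 2 records. In kallisto Gm45808 had 0, 11 and 49 counts. The Ggnbp1 records had 8, 28 and 0 and 52, 66 and 31 there. Such counts are an outcome of the division of reads, so they do not give the number of ambiguous reads. Gm10634, opposite Bcl2a1d, had 101, 105 and 55 RSEM counts, where Bcl2a1d itself had 428, 344 and 404. The labels and headers used here do not say whether counting used strand. Bcl2a1d transcripts shared no 100-base word with Gm10634 on either strand, whereas those of Bak1 shared some with Ggnbp1. Some reads of Bak1 and Ggnbp1 may thus not be told apart. Which genes share shorter words with each member was not listed.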

How the data were processed

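Total RNA-seq of 3 libraries of 1 group was used. Per the file headers and the notes deposited with them, the authors made gene and transcript tables from alignments to the transcriptome (mm10, GENCODE M21), with expected counts, TPM and credibility bounds in RSEM's columns, and transcript tables of estimated counts and TPM from the reads in kallisto's columns. Tool versions and the strand setting: not given in the sources used here. TPM includes small RNAs, so a large 7SL share lowers the TPM of messenger RNAs.

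Expected counts deposited by the authors were rounded, filtered with filterByExpr and TMM-normalised in edgeR 4.0.16 (R 4.3.3; prior count 2), with an intercept-only design and no test. The common coefficient of variation was 15.15% over 12744 genes. On simulated data with a set coefficient of 0.2 over 12957 genes, 0.207 was recovered. Ratios used log2(TPM + 0.1); 3 counts were 0.0566 to 0.0777 CPM. DESeq2 1.42.0 size factors, other filters, prior counts, pseudocounts, thresholds, kallisto values and left-out replicates were the alternatives. Replicate pairs differed beyond sampling noise (chi-square per degree of freedom 49.1 to 85.4). Between 0.04% and 0.19% of the expected counts lay on targets that are not annotated genes.

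The 10 genes and all lists were chosen with earlier results of these data known. Named are all 10 genes, the 3 highest genes of each list and any under 1 TPM in all libraries, the 5 genes nearest in pattern, and transcripts with at least 10% of a gene. Septin4 had no match in the annotation. Sequences are GENCODE M21 transcripts on mm10.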

Additional observations from a re-analysis of the deposited data

How the results depend on the processing

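The number of the 10 genes at or above 1 TPM was 8 or 9 under every threshold, quantification and left-out replicate tried, and Mcl1 led in all of them. The count was not repeated on TPM rescaled to nuclear protein-coding and long noncoding genes, where Bcl2 and Bcl2a1a averaged over 1 TPM. The median over the 10 genes was 22.9 TPM as reported, 7.57 with kallisto, 88.4 when TPM was rescaled to nuclear protein-coding and long noncoding genes, and 14.7 over coding transcripts alone, the last setting chosen after seeing the data. Genes of the wider lists detected numbered 48, with 37 in kallisto and 29 at a threshold of 5 TPM.

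The only ratio to change sign was Bax over Bak1, at -0.52 (log2) in counts without length scaling, a setting that leaves transcript length in the value; over coding transcripts it was 3.28. In such counts Mcl1 over Bcl2l1 was 3.65, Mcl1 over Bcl2 6.34, summed Bcl2a1 over Mcl1 -4.29, guardians over executioners 2.89 and Bcl2l11 over guardians -2.39. With kallisto, Mcl1 over Bcl2l1 was 3.40, summed Bcl2a1 over Mcl1 -2.34, guardians over executioners 1.82 and Bcl2l11 over guardians -3.20. Over coding transcripts, guardians over executioners was 2.12 and Bcl2l11 over guardians -3.12. A pseudocount of 1 put Mcl1 over Bcl2 at 6.41. The cause of the kallisto differences was not tested.

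Bcl2a1a held 1.09% of the copies' counts in kallisto. The median share of the leading transcript, 75.2%, was 65.3% in kallisto and 87.8% by counts, and that of protein-coding transcripts, 99.4%, was 98.7% and 99.7%. The median SD between libraries, 0.20, ranged from 0.092 to 0.22 with a replicate left out, lowest without replicate 3. Members over 1.5-fold between any pair of replicates numbered 2 (Birc3 and Bcl2) as reported, 1 (Birc3) without a filter on low counts, and 3 with DESeq2 size factors or kallisto counts, which added Bcl2a1b; library size alone gave Birc3 and Bcl2a1b. Birc3 passed in every one of these settings.

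No paired analysis was possible because the 3 libraries form a single group, so their replicate numbers pair nothing. Bcl2a1a, at 15 to 21 counts, is limited by depth.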
